A study of Mus musculus with 16 samples.

Results

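Nrf2-null liver was compared with wild-type liver in mice that received no drug, across all genes measured by RNA-seq. The comparison used 8 of the 16 libraries of the study, 4 labelled KO untreated and 4 labelled WT DMSO, chosen by genotype and treatment label alone. The KO untreated mice were Nrf2-null C57BL/6 mice labelled as untreated, with no injection described, and the WT DMSO mice were wild-type C57BL/6 mice injected intraperitoneally with 1 µL/g dimethyl sulfoxide 24 h and 1 h before partial hepatectomy. In both groups the tissue is the day 0 liver from the operation. Vehicle and injection therefore go with genotype here and cannot be told apart from it. The 8 other libraries, KO CDDO-Me and WT CDDO-Me, came from mice of the same genotypes given the NRF2 activator CDDO-Me at 3 mg/kg in DMSO on the same schedule, and served to read the same genotype difference where both genotypes had been injected. Neither the deleted segment of Nfe2l2 nor the cells that lack it are given in the labels, and the labels do not tie each library to an animal of its own, so p-values measure the spread between samples, which may be technical.

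NRF2, encoded by Nfe2l2, is a transcription factor that KEAP1 normally holds in the cytoplasm and hands over for degradation. Oxidants and electrophiles modify KEAP1, after which NRF2 accumulates, pairs with small MAF proteins and binds antioxidant response elements in the promoters of detoxification genes. In liver its targets are known as enzymes of quinone, aldehyde and epoxide clearance, glutathione conjugation, glucuronidation, NADPH supply and conjugate export.

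Library quality differed within and between the groups. Totals were 14019793 to 24194378 counts in KO untreated libraries, against 12002317 to 26948425 in WT DMSO libraries. Reads on sense-intronic and unconfirmed transcripts made up 0.967% and 0.673% in KO untreated 1 and 2 and 0.681% and 0.880% in WT DMSO 1 and 2, the 4 intron-rich libraries, and 0.212% to 0.283% in libraries 3 and 4 of both groups. Mitochondrially encoded genes took 3.01% to 3.74% of counts in KO untreated libraries, against 4.09% to 10.02% in WT DMSO libraries. Nuclear rRNA took 0.0038% to 0.0368% in KO untreated libraries, against 0.173% to 0.634% in WT DMSO 1 to 3 and 0.00595% in WT DMSO 4. The part of these differences in the gene calls was not tested beyond the fits without the intron-rich libraries, with the intronic share as a covariate, with only the 10 libraries low in nuclear rRNA and without single libraries.

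Nfe2l2 lies on chromosome 2, 75675513 to 75704641 of GRCm38 (ENSMUSG00000015839), and its level served to check the genotype labels. It stood at 51.6, 35.5, 19.9 and 21.3 CPM in KO untreated 1 to 4, against 42.8, 66.2, 55.1 and 74.9 CPM in WT DMSO 1 to 4, where CPM is a gene's count relative to the total of its library, with totals scaled by the TMM method. KO untreated 1 lay inside the WT DMSO range, and the other 3 KO libraries lay below it. With a log2 fold change of -0.9 ± 0.25, where ± is the SE here and below, Nfe2l2 missed the threshold (edgeR adjusted p = 0.0969). The p-values come from the quasi-likelihood test of edgeR and are adjusted over all genes by the method of Benjamini and Hochberg. Without KO untreated 1 the change was -1.22 and passed (edgeR adjusted p = 0.0155). The counts cover the whole gene, so reads from a part that was not deleted would remain in them. The target gene Nqo1, described further on, was lower in each of the 4 KO libraries than in any WT DMSO library.

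Of 16206 genes tested, 223 were called at an adjusted p under 0.05, 66 higher and 157 lower in KO untreated liver. These are 1.38% of the genes tested, 0.407% called higher and 0.969% called lower. The median log2 fold change was -1.80 among the genes called lower and 1.26 among those called higher, against 0.0035 over all genes tested. More than 4-fold differences made up 68 of the 157 lower calls and 9 of the 66 higher calls. The 4 KO libraries lay wholly below the 4 WT DMSO libraries for 147 of the lower calls and wholly above for 63 of the higher calls, beside 3.04% of all genes wholly below, 2.87% wholly above and 958 (5.91%) without overlap in either direction. Protein-coding genes gave 135 of the lower and 65 of the higher calls.

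The number called depended on which libraries set the spread between samples. With the 8 libraries alone, 18 genes were called lower and 2 higher. The biological coefficient of variation was 37% within these 8 libraries, 20.3% within the 8 CDDO-Me libraries and 30.2% over all 16, and the calls above rest on the shared value. Leaving out KO untreated 1, 2, 3 or 4 gave 100, 71, 92 or 81 lower calls. Higher calls numbered 33, 39 or 27 on leaving out KO untreated 2, 3 or 4, and 36 on leaving out WT DMSO 2. DESeq2 called 245 genes higher and 412 lower. On FPKM values, which are not scaled by TMM and moved the median of all genes by 0.107, 168 of 251 calls were higher (66.9%, against 29.6% in the edgeR fit). An unadjusted edgeR p under 0.05 was found for 2287 genes, or 14.1% of those tested, which is the background for the unadjusted counts given beside lists.

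All 20 genes called from the 8 libraries alone were also called, in the same direction, with all 16. Among the 18 lower ones were Abcc3, Gstm1, Gsta2, Ces1g, Osgin1 and Ugdh of the NRF2 target list, together with Ces1b, Ces1f, 9130409I23Rik, Gm16867, Gm27177, Adora1, Cxcl1, Fitm1, Map3k6, Slc35e3 and Tsku. The 2 higher ones were Chic1 and Igf2bp3. Of the 20, 17 were also called in the same direction between the 8 CDDO-Me libraries. The 3 that were not are Cxcl1, Map3k6 and Igf2bp3. Adora1, Map3k6, Slc35e3 and Tsku fell outside the naming rule and are given because they belong to this count, after their values were seen.

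Every NRF2 target gene that passed the test was lower in KO untreated liver. Of 43 tested, 17 were called lower and 0 higher by edgeR (DESeq2 called 20 lower and 0 higher, and 29 lower and 0 higher had an unadjusted p under 0.05). The median over the 43 genes was -0.75, against 0.0035 over all genes tested. The lower count was 8 without the 4 libraries rich in intronic reads, and 6 with the 8 libraries alone. Calls over all genes are counted by list in the bar chart, where the NRF2 list has the longest bar. The members of the lists were chosen with earlier results of these data known, so these counts are not independent of those results.

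**Figure D1:**
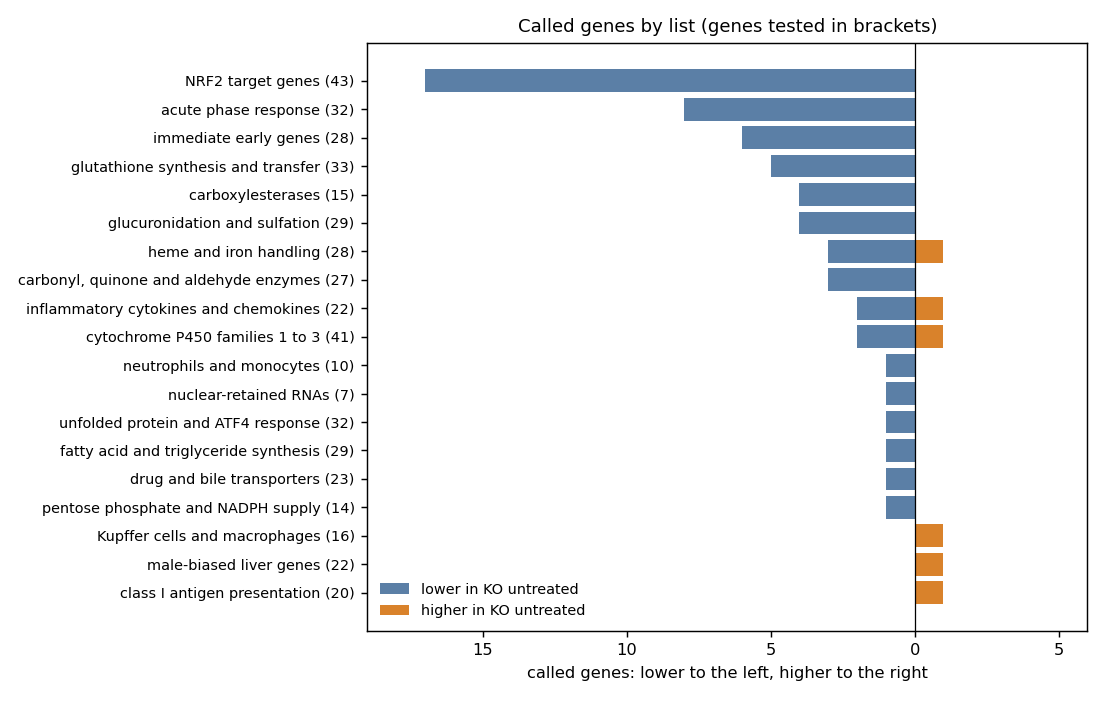
Bars give, for each gene list with at least 1 call, the number of genes called lower (bars to the left) and higher (bars to the right) in KO untreated liver against WT DMSO liver, with the number of genes tested in brackets. The NRF2 target list has 17 lower calls of 43, the acute phase list 8 of 32 and the immediate early list 6 of 28. Lists overlap in membership.

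The antioxidant response element searched for was TGACNNNGC, on either strand, in RefSeq promoter windows of the GRCm38.p6 build that run from 250 bases before to 50 after a gene's start. It was found in 14% of all 27025 genes with a window. Among the genes of the NRF2 list called lower it was found in 3 of the 15 with a window, Ugdh, Htatip2 and Me1, and among those not called in 9 of 21. These 3 windows are shown because they join a lower level in KO liver with a match. A match is a description of letters and not a shown binding site. The windows are chr5:65435793-65436092 on the minus strand for Ugdh, chr7:49758856-49759155 on the plus strand for Htatip2 and chr9:86695865-86696164 on the minus strand for Me1, each 5′ to 3′ along the gene, with the matches in capitals.
Ugdh: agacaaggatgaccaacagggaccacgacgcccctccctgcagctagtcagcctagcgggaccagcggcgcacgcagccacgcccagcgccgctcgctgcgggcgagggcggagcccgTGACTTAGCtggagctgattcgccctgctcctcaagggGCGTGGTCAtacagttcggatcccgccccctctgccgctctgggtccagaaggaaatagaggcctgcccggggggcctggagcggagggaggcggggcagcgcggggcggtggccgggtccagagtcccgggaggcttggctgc
Htatip2: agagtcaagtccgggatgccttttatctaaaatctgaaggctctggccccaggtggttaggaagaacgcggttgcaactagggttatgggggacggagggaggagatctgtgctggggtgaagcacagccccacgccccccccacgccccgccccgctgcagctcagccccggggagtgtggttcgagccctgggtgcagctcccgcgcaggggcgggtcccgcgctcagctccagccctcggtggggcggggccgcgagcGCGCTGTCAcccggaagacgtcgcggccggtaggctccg
Me1: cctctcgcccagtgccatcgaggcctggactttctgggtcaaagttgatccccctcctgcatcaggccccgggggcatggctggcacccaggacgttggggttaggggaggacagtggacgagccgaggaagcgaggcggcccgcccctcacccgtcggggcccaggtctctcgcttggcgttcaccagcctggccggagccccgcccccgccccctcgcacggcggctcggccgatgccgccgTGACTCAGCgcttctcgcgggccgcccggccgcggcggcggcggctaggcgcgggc
The Ugdh window holds 2 matches, TGACTTAGC from -132 to -124 on the gene's strand and TGACCACGC from -94 to -86 on the other, counted from the start site. The Me1 match, TGACTCAGC, spans the start site itself, from -6 to 2. Htatip2 has the match TGACAGCGC on the opposite strand at 11 to 19, and a second RefSeq start of this gene has TGACTCAGC at -49 to -41. The opposite-strand matches appear in the printed windows as their reverse complements.

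Ugdh makes UDP-glucuronic acid, the sugar donor for glucuronidation. It stood at 48.9, 71.9, 76.6 and 75.9 CPM in KO untreated 1 to 4, against 177, 146, 183 and 168 CPM in WT DMSO 1 to 4. The groups were far apart, with KO untreated 1 the lowest of all (log2 fold change -1.3 ± 0.16, edgeR adjusted p = 0.00053). Me1, the cytosolic malic enzyme that supplies NADPH, had 75.2, 105, 127 and 85.7 CPM in KO untreated liver, against 247, 309, 310.2 and 192 CPM in WT DMSO liver. Every KO library was below every WT library (log2 fold change -1.43 ± 0.25, edgeR adjusted p = 0.00903). Htatip2, which encodes a protein with an oxidoreductase fold, had 9.24, 8.88, 12.2 and 16.3 CPM in KO untreated and 31.04, 30.1, 26.96 and 20.6 CPM in WT DMSO libraries. These groups did not overlap either, although KO untreated 4 and WT DMSO 4 came close (log2 fold change -1.22 ± 0.2, edgeR adjusted p = 0.0066).

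Of 27 enzymes of quinone, aldehyde and epoxide clearance tested, 3 were called lower and 0 higher by edgeR (DESeq2 also called 3 lower and 0 higher, and 7 lower and 1 higher had an unadjusted p under 0.05). With the 8 libraries alone 0 of 25 tested were called, so all 3 calls, Nqo1, Aox1 and Ephx1, depend on the spread shared with the CDDO-Me libraries. Nqo1, a quinone reductase and the usual marker of NRF2 activity, had 0.508, 0.434, 0.897 and 1.19 CPM in KO untreated 1 to 4, against 3.21, 3.75, 4.21 and 4.04 CPM in WT DMSO 1 to 4. It was low in all 4 KO libraries and uniform in the WT libraries (log2 fold change -2.31 ± 0.32, edgeR adjusted p = 0.00206). Aox1, aldehyde oxidase, had 65.9, 47.5, 32.2 and 28.1 CPM in KO untreated liver, against 280.2, 250.5, 208 and 116 CPM in WT DMSO liver. WT DMSO 4 was the lowest WT library and still above the highest KO library (log2 fold change -2.3 ± 0.28, edgeR adjusted p = 0.000488). Ephx1, microsomal epoxide hydrolase, had 56.7, 71.4, 116 and 124 CPM in KO untreated liver, against 252, 205, 484 and 337 CPM in WT DMSO liver (log2 fold change -1.8 ± 0.29, edgeR adjusted p = 0.00561). In both groups its libraries 3 and 4 were higher than libraries 1 and 2.

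Glutathione transferases couple glutathione to electrophiles. Of 33 genes of glutathione synthesis and transfer tested, 5 were called lower and 0 higher by edgeR (DESeq2 called 8 lower and 0 higher, and 14 lower and 0 higher had an unadjusted p under 0.05). With the 8 libraries alone 2 were called lower, and without the intron-rich libraries 1, Gstm1. All 5 genes called with the 16 libraries were transferases. Gstm1 (chromosome 3, 108012255 to 108017973) had 88.4, 75.1, 125 and 204 CPM in KO untreated 1 to 4, against 675, 508, 879 and 598 CPM in WT DMSO 1 to 4. The highest KO library was below every WT library by more than 2-fold (log2 fold change -2.43 ± 0.29, edgeR adjusted p = 0.000471). Its neighbour Gstm3 had 5.99, 4.68, 5.57 and 18.5 CPM in KO untreated liver, against 32.1, 40.3, 57.4 and 29.6 CPM in WT DMSO liver. KO untreated 4 stood above the other 3 KO libraries without reaching the WT range (log2 fold change -2.19 ± 0.37, edgeR adjusted p = 0.00751). Gstm4 had 6.96, 11.3, 13.7 and 24.9 CPM in KO untreated and 29.7, 29.2, 45.97 and 35.2 CPM in WT DMSO libraries (log2 fold change -1.3 ± 0.29, edgeR adjusted p = 0.0351), and its call was lost on leaving out any of KO untreated 1, 2 or 3 or WT DMSO 3 or 4 (edgeR adjusted p up to 0.107). Gsta1 had 0.203, 0.386, 0.802 and 1.41 CPM in KO untreated and 3.002, 4.37, 4.28 and 3.08 CPM in WT DMSO libraries (log2 fold change -2.35 ± 0.4, edgeR adjusted p = 0.00749). Gsta2 had 2.13, 2.41, 1.699 and 3.67 CPM in KO untreated and 9.21, 9.02, 16.3 and 9.05 CPM in WT DMSO libraries (log2 fold change -2.13 ± 0.31, edgeR adjusted p = 0.00285). The 2 alpha-class genes were low in both groups and separated completely. Reads of the near-identical mu and alpha copies can be split between genes by the counting, so the level of a single copy is uncertain.

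Neither gene of the rate-limiting step of glutathione synthesis was called. Gclc, the catalytic subunit of glutamate-cysteine ligase, had 209.7, 146, 222 and 192 CPM in KO untreated 1 to 4, against 288, 218, 271 and 277 CPM in WT DMSO 1 to 4. KO untreated 3 lay above the lowest WT library, and the change did not pass (log2 fold change -0.45 ± 0.19, edgeR adjusted p = 0.293). Gclm, the modifier subunit, had 84.1, 117, 179.8 and 156 CPM in KO untreated and 102, 87.7, 211 and 183 CPM in WT DMSO libraries, which overlapped (log2 fold change -0.12 ± 0.27, edgeR adjusted p = 0.929), with a sign that turned under 5 other settings. Txnrd1, thioredoxin reductase, had 70.4, 77.3, 101 and 86.2 CPM in KO untreated and 115, 113, 152 and 253 CPM in WT DMSO libraries. All KO libraries were lower, yet the change missed the threshold (log2 fold change -0.91 ± 0.22, edgeR adjusted p = 0.0543). Srxn1, sulfiredoxin, had 10.9, 15.1, 21.3 and 23.6 CPM in KO untreated and 26.6, 22.96, 26.4 and 39.5 CPM in WT DMSO libraries, with 1 KO library inside the WT range (log2 fold change -0.71 ± 0.25, edgeR adjusted p = 0.19). Hmox1, the inducible heme oxygenase, had 9.802, 10.9, 17.4 and 17.9 CPM in KO untreated and 20.5, 34.1, 47.2 and 294 CPM in WT DMSO libraries. WT DMSO 4 stood far above the other 3 WT libraries, and the change did not pass (log2 fold change -2.83 ± 0.68, edgeR adjusted p = 0.0502).

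**Figure D2:**
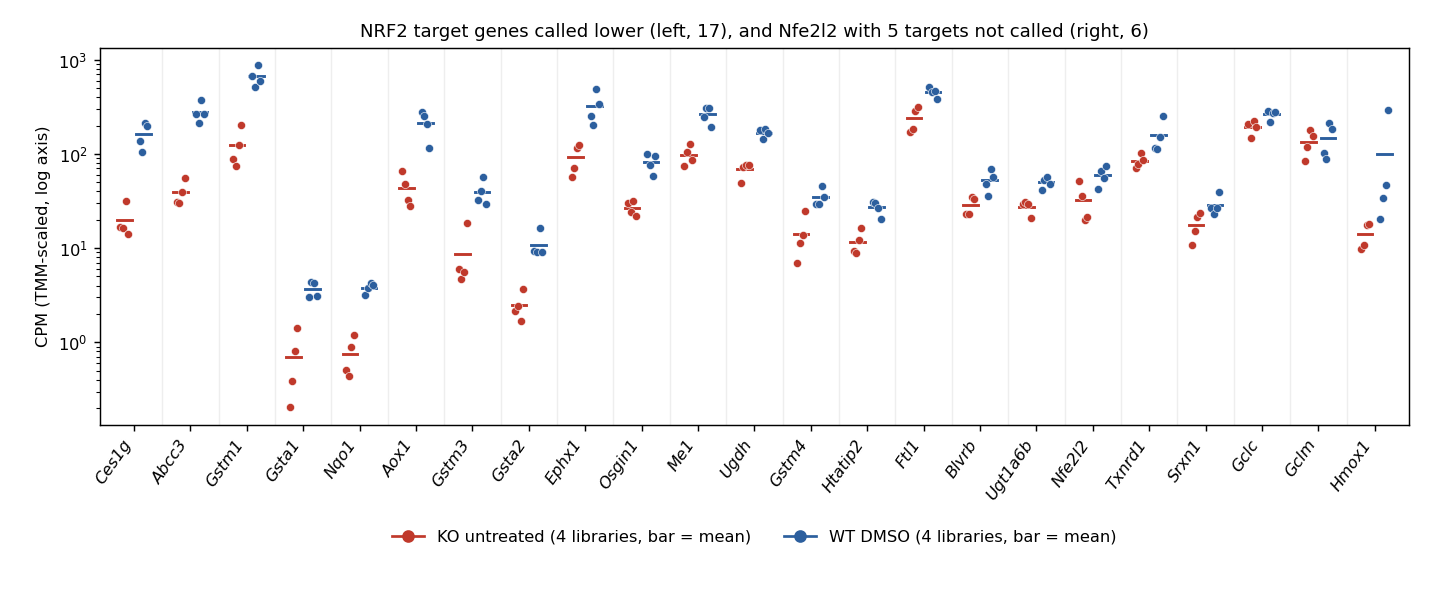
Each point is 1 library and each bar a group mean, in TMM-scaled CPM on a log axis, with KO untreated left of WT DMSO for each gene. For the 17 genes called lower all 4 KO libraries lie below all 4 WT libraries, while for Nfe2l2, Srxn1, Gclc and Gclm the groups overlap.

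Export and glucuronidation of conjugates were represented by 4 further genes. Abcc3, a pump that moves conjugates from hepatocytes into blood, had 30.6, 30.2, 39.8 and 55.9 CPM in KO untreated 1 to 4, against 267, 213, 372 and 262 CPM in WT DMSO 1 to 4. It had the lowest adjusted p of the NRF2 list, and the groups were wide apart (log2 fold change -2.83 ± 0.24, edgeR adjusted p = 7.38e-06). It was the only 1 of 23 drug and bile transporters called. Of 29 genes of glucuronidation and sulfation, 4 were called lower and 0 higher by edgeR (DESeq2 called 5 lower and 0 higher, and 7 lower and 1 higher had an unadjusted p under 0.05), and 1 with the 8 libraries alone. Besides Ugdh these were 3 glucuronosyltransferases. Ugt2b35 had 42.6, 69.2, 73.7 and 47.1 CPM in KO untreated and 141, 135, 224 and 285 CPM in WT DMSO libraries (log2 fold change -1.76 ± 0.26, edgeR adjusted p = 0.00286). Ugt1a6b had 29.1, 30.6, 29.2 and 20.7 CPM in KO untreated and 41.8, 52.5, 57.1 and 48.2 CPM in WT DMSO libraries, a smaller and tighter difference (log2 fold change -0.87 ± 0.14, edgeR adjusted p = 0.00694). Ugt2b5 had 140.4, 159, 251 and 223 CPM in KO untreated and 324, 292, 878 and 736 CPM in WT DMSO libraries (log2 fold change -1.53 ± 0.32, edgeR adjusted p = 0.0266), and lost its call in 5 of the 8 fits that leave out 1 library. The Ugt1a genes share exons, so reads of 1 can count for another.

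Carboxylesterases hydrolyse esters of drugs and lipids. Of 15 tested, 4 were called lower and 0 higher by edgeR (DESeq2 called 5 lower and 0 higher, and 7 lower and 0 higher had an unadjusted p under 0.05), with a median of -0.88. The median was -0.29 without WT DMSO 4 and the count 2 without the intron-rich libraries. All 4 lie in the Ces1 cluster of chromosome 8. Ces1b had 6.45, 4.199, 5.71 and 11.4 CPM in KO untreated 1 to 4, against 66.5, 73.8, 80.6 and 54.6 CPM in WT DMSO 1 to 4 (log2 fold change -3.31 ± 0.31, edgeR adjusted p = 3.77e-05). Ces1f had 41.5, 38.03, 27.8 and 46.6 CPM in KO untreated liver, against 186, 166, 378 and 306 CPM in WT DMSO liver (log2 fold change -2.75 ± 0.4, edgeR adjusted p = 0.00285). Ces1g had 16.7, 16.5, 31.5 and 14.2 CPM in KO untreated liver, against 138, 104, 215 and 199 CPM in WT DMSO liver (log2 fold change -3.06 ± 0.51, edgeR adjusted p = 0.00694). For these 3 genes the highest KO library was far below the lowest WT library. Ces1a had 0.0508, 0, 0.0472 and 0 CPM in KO untreated liver, against 0.273, 0.416, 0.201 and 0.276 CPM in WT DMSO liver, which is at most 1 read per KO library (edgeR adjusted p = 0.0272). These paralogs are similar in sequence, and how the counting divided shared reads is not given in the sources used here.

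Among cytochrome P450 genes of families 1 to 3, 2 of 41 were called lower and 1 higher. Cyp2a5, a coumarin hydroxylase, had 41.1, 40.2, 67.2 and 24.4 CPM in KO untreated 1 to 4, against 143, 301, 430.4 and 141 CPM in WT DMSO 1 to 4 (log2 fold change -2.55 ± 0.56, edgeR adjusted p = 0.0317). Cyp3a13 had 96.8, 101, 139.9 and 143 CPM in KO untreated liver, against 369.5, 204, 296 and 174 CPM in WT DMSO liver (log2 fold change -1.12 ± 0.26, edgeR adjusted p = 0.0411). Both were separate between the groups but lost the call in 5 and 6 of the 8 fits without 1 library, and Cyp3a13 also with replicate number as a block (edgeR adjusted p = 0.0655). Cyp2a5 has a near-identical neighbour, Cyp2a4, with which it can share reads. Cyp2u1, a fatty acid hydroxylase, was higher, with 84.8, 96.5, 98.4 and 80.5 CPM in KO untreated and 29.6, 22.7, 52.3 and 43.99 CPM in WT DMSO libraries (log2 fold change 1.28 ± 0.21, edgeR adjusted p = 0.00696).

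Of 28 iron and heme genes, 3 were called lower and 1 higher, in counts that single libraries changed. None was called lower without KO untreated 1, without KO untreated 2 or with the 8 libraries alone, and 1 without KO untreated 3, KO untreated 4, WT DMSO 3, WT DMSO 4 or the intron-rich libraries. Ftl1, the ferritin light chain, had 172, 185, 288 and 315 CPM in KO untreated 1 to 4, against 519, 452, 461 and 380.2 CPM in WT DMSO 1 to 4 (log2 fold change -0.92 ± 0.22, edgeR adjusted p = 0.0465). Blvrb, a biliverdin reductase of heme breakdown, had 23.01, 22.9, 34.97 and 33.4 CPM in KO untreated and 48.2, 36.1, 68.98 and 57.4 CPM in WT DMSO libraries (log2 fold change -0.88 ± 0.2, edgeR adjusted p = 0.0375). For both the KO libraries were lower without overlap, and both were near the threshold, Ftl1 being called in 2 and Blvrb in 3 of the 8 fits that leave out 1 library. Hamp, the iron hormone hepcidin, had 137, 35.1, 149.8 and 81.5 CPM in KO untreated and 237, 343, 625 and 358 CPM in WT DMSO libraries (log2 fold change -1.95 ± 0.46, edgeR adjusted p = 0.0466). Its paralog Hamp2 had 19.1, 11.8, 17.8 and 22.5 CPM in KO untreated and 3.34, 6.94, 8.43 and 2.75 CPM in WT DMSO libraries (log2 fold change 1.74 ± 0.38, edgeR adjusted p = 0.0303). Hamp2, with a higher level in KO liver, was called in 3 of the 8 fits that leave out 1 library (edgeR adjusted p up to 0.0854). Hamp was called in only 1 of these fits, and not with the replicate block (edgeR adjusted p = 0.0544). The last NRF2 target called, Osgin1, an oxidative stress response gene, had 29.9, 23.99, 31.6 and 21.7 CPM in KO untreated and 99.3, 76.8, 57.7 and 94.96 CPM in WT DMSO libraries, wholly separate (log2 fold change -1.62 ± 0.3, edgeR adjusted p = 0.0127).

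The same genotype difference was then read in the 8 CDDO-Me libraries, which share no library with the comparison above but share the fitted spread. Library quality went with genotype here too. Nuclear rRNA took 0.00108% to 0.00768% in KO CDDO-Me libraries, against 0.194% to 0.51% in WT CDDO-Me 2 to 4. WT CDDO-Me 1 had 0.0105%, with 99284626 counts in total. Mitochondrially encoded genes took 2.57% to 3.20% in KO CDDO-Me libraries, against 3.85% to 14.7% in WT CDDO-Me libraries. The part of these differences in the calls was not tested. In these 8 libraries 534 genes were called (3.3%), 172 higher (1.06%) and 362 lower (2.23%), and all 4 KO libraries lay below all 4 WT libraries for 9.82% of genes and above them for 9.25%. Of the 157 genes called lower without drug, 148 were also negative under CDDO-Me and 70 were called lower, which is 44.6% of the 157 and 19.3% of the 362. Of the 66 called higher without drug, 55 were positive and 21 called higher, 31.8% of the 66 and 12.2% of the 172. None was called in opposite directions, and 51.34% of all genes tested were negative under CDDO-Me.

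The genes called lower were read by list in this second set of libraries, and differences between the lists were not tested. The largest group was 124 lower calls outside the NRF2, acute phase, immediate early and cytokine lists. Of these, 53 were called lower under CDDO-Me and 117 were negative, with a median of -0.98 there, against -1.76 without drug. All 17 NRF2 targets called lower without drug were called lower under CDDO-Me too, with a median of -3.63 there, against -1.80 without drug. Of all 43 genes tested in the NRF2 list, 37 were called lower under CDDO-Me and 43 were negative, with a median of -2.39. Being called lower there was thus not particular to the 17. The difference between the 2 genotype contrasts was itself called for 6 of the 17 (edgeR interaction test, 0.13% of all genes called), and 15 had an unadjusted p under 0.05, as had 1383 of all 16206 genes. These genes were chosen by the contrast without drug, which is also 1 of the 2 contrasts in the interaction, so their share says nothing independent of that choice. Abcc3 stood at 40.4 ± 8.89 CPM in KO CDDO-Me and 708 ± 53.6 CPM in WT CDDO-Me libraries (mean ± SD, n = 4 each), and Gstm1 at 115 ± 4.62 CPM in KO CDDO-Me and 4842 ± 552 CPM in WT CDDO-Me libraries. The KO levels were close to those without drug, and the WT levels were above them. Gclc, not called without drug, had 202 ± 43.8 CPM in KO CDDO-Me and 1157 ± 182 CPM in WT CDDO-Me libraries (log2 fold change -2.52, edgeR adjusted p = 7.81e-07; interaction adjusted p = 0.00241). The log2 fold change of Me1 was -1.43 without drug and -1.4 under it (edgeR interaction adjusted p = 0.999).

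By contrast, of the 16 genes of the acute phase, immediate early and cytokine lists called lower without drug, none was called under CDDO-Me by edgeR (DESeq2 called 0, and 3 had an unadjusted p under 0.05, as had 2769 of all 16206 genes). There 14 were negative, with a median of -0.31, against -2.06 without drug. The interaction was called for 0 of the 16 by edgeR. An unadjusted interaction p under 0.05 was found for 15 of these genes, which were likewise chosen by the contrast without drug. KO untreated is the only group of the 4 with no injection described. Injection and drug cannot be told apart as what separates these 2 sets of libraries.

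**Figure D3:**
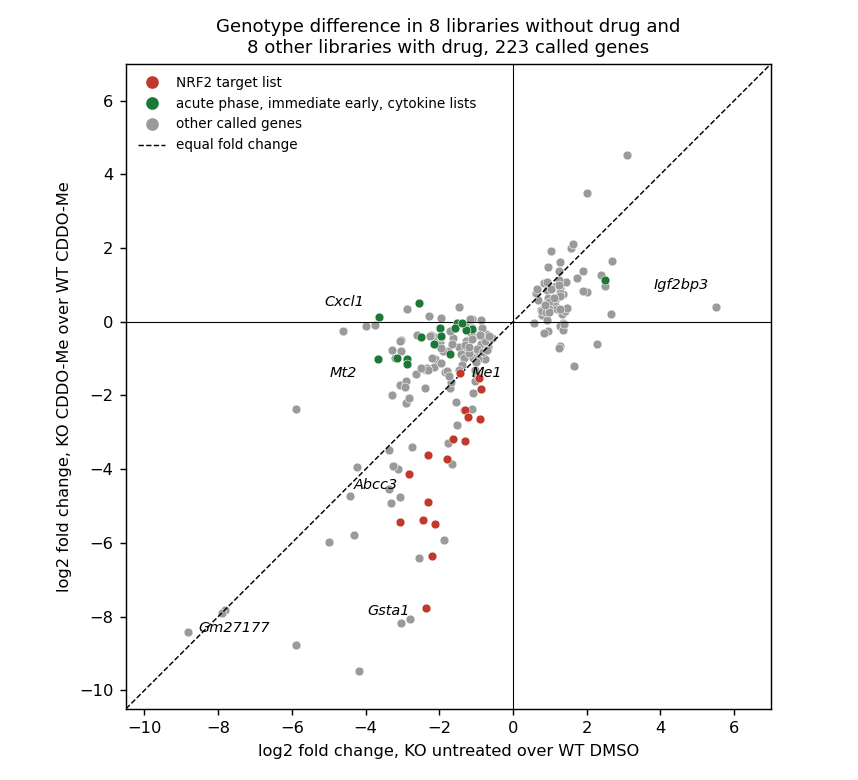
Each point is 1 of the 223 called genes, with its log2 fold change of KO untreated over WT DMSO on the horizontal axis and of KO CDDO-Me over WT CDDO-Me on the vertical axis, and a dashed line where both are equal. NRF2 targets lie mostly below the line, the 16 acute phase, immediate early and cytokine genes have a median of -0.31 on the vertical axis, with 14 below 0, and Igf2bp3 is far right at 5.51 and 0.40. Values of genes with 1 or no KO read, such as Gm27177, depend on the fit's prior count.

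Acute phase genes are plasma protein, metal-binding and signalling genes that liver induces in inflammation and injury. Of 32 tested, 8 were called lower and 0 higher by edgeR (DESeq2 called 11 lower and 0 higher, and 18 lower and 0 higher had an unadjusted p under 0.05), 30 were negative and the median was -1.19. WT DMSO 4 was high for several of them, and without it 5 were called and the median was -0.33. The count was 5 also without KO untreated 1 or 2, 4 without the 4 intron-rich libraries and 0 with the 8 libraries alone. Saa4, a constitutive serum amyloid, had 161, 191, 227 and 149 CPM in KO untreated 1 to 4, against 431, 384, 608 and 735 CPM in WT DMSO 1 to 4 (log2 fold change -1.57 ± 0.24, edgeR adjusted p = 0.00403). Serpina3m, a serine protease inhibitor, had 258, 176, 288 and 265 CPM in KO untreated and 747, 556, 606 and 946 CPM in WT DMSO libraries (log2 fold change -1.53 ± 0.22, edgeR adjusted p = 0.00255). Both kept their call without any 1 library, WT DMSO 4 included. Orm3, an orosomucoid, had 0.6095, 1.45, 0.755 and 0.256 CPM in KO untreated and 10.6, 9.78, 2.14 and 4.59 CPM in WT DMSO libraries (log2 fold change -3.14 ± 0.59, edgeR adjusted p = 0.0142). Lbp, which binds bacterial lipopolysaccharide, had 80.5, 91.6, 110.1 and 133 CPM in KO untreated and 203, 196, 159.7 and 535 CPM in WT DMSO libraries (log2 fold change -1.4 ± 0.32, edgeR adjusted p = 0.0421). Stat3, the transcription factor of interleukin-6 signalling, had 117, 126, 184 and 189 CPM in KO untreated and 251, 259, 299 and 517 CPM in WT DMSO libraries (log2 fold change -1.1 ± 0.24, edgeR adjusted p = 0.0302). Lbp and Stat3 were highest in WT DMSO 4 and lost their calls without it. Lbp lost its call also without KO untreated 1, 2, 3 or 4, and Stat3 without KO untreated 1 or 2.

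The metallothioneins Mt1 and Mt2, which bind zinc and copper, were in the same list and changed more. Mt1 had 25.04, 57.96, 116 and 125 CPM in KO untreated 1 to 4, against 414, 563, 486 and 914 CPM in WT DMSO 1 to 4 (log2 fold change -2.87 ± 0.45, edgeR adjusted p = 0.00499). Mt2 had 5.54, 19.6, 80.6 and 70.8 CPM in KO untreated liver, against 277, 449, 431 and 1087 CPM in WT DMSO liver (log2 fold change -3.67 ± 0.64, edgeR adjusted p = 0.00943). Every KO library was far below every WT library, and within the KO group libraries 1 and 2 were the lowest. Both calls held without any 1 library. Under CDDO-Me, Mt2 averaged 400.0 ± 79.3 CPM in KO and 804 ± 261 CPM in WT libraries (SD, n = 4 each), a difference that was not called (log2 fold change -1.01, edgeR adjusted p = 0.416).

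Immediate early genes are transcription factors and stress genes that respond within minutes to injury or growth signals. Of 28 tested, 6 were called lower and 0 higher by edgeR (DESeq2 called 9 lower and 0 higher, and 15 lower and 1 higher had an unadjusted p under 0.05). Leaving out KO untreated 1, 2, 3 or 4 left 1, 0, 1 or 1 call, and it was 2 without WT DMSO 4, and 0 without the intron-rich libraries or with the 8 libraries alone. Junb had 26.5, 21.7, 30.8 and 28.2 CPM in KO untreated 1 to 4, against 147, 68.5, 67.04 and 196 CPM in WT DMSO 1 to 4 (log2 fold change -2.16 ± 0.41, edgeR adjusted p = 0.0145). Its KO values were tight, and its WT values were in 2 pairs. Jun, its partner in AP-1, had 37.1, 22.97, 29.8 and 36.9 CPM in KO untreated and 107, 70.7, 62.6 and 64.9 CPM in WT DMSO libraries (log2 fold change -1.27 ± 0.29, edgeR adjusted p = 0.0391). Atf3, a stress-induced factor, had 1.88, 1.01, 0.897 and 1.92 CPM in KO untreated and 9.96, 4.58, 3.68 and 15.2 CPM in WT DMSO libraries (log2 fold change -2.55 ± 0.57, edgeR adjusted p = 0.0372). Fosl2, Gadd45a and Maff, the last a small MAF partner of NRF2, also fell, by 1.70, 2.87 and 2.51 on the log2 scale. Each of these 3 was highest in WT DMSO 4 and lost its call without that library, and also without KO untreated 1, 2, 3 or 4. Jun and Atf3 were each called in only 2 of the 8 fits that leave out 1 library. Both lost the call without KO untreated 1, 2, 3 or 4 and without WT DMSO 1. Atf3 lost it also without WT DMSO 4, and Jun without WT DMSO 2. Junb lost its call without KO untreated 2.

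Cytokine and chemokine genes gave 2 lower calls and 1 higher call of 22. Cxcl1, a neutrophil-attracting chemokine, had 12.3, 16.8, 7.598 and 11.8 CPM in KO untreated 1 to 4, against 168, 115, 42.9 and 275 CPM in WT DMSO 1 to 4. The KO libraries were uniform and low, and the WT libraries were high and scattered (log2 fold change -3.63 ± 0.56, edgeR adjusted p = 0.00449). Cxcl1 was the only 1 of these inflammatory genes called also with the 8 libraries alone (edgeR adjusted p = 0.0404). Under CDDO-Me its libraries averaged 138 ± 103 CPM in KO CDDO-Me and 126 ± 28.5 CPM in WT CDDO-Me (SD, n = 4 each; edgeR adjusted p = 0.94). Nfkbiz, a regulator of NF-kB targets, had 13.9, 11.7, 8.78 and 11.6 CPM in KO untreated and 44.3, 33.6, 16.1 and 85.3 CPM in WT DMSO libraries (log2 fold change -1.97 ± 0.42, edgeR adjusted p = 0.0271). Its call was lost without WT DMSO 4, and also without KO untreated 1, 2, 3 or 4. Interferon response genes had no call by edgeR among 41 tested (DESeq2 called 0 higher and 1 lower, and 1 higher and 12 lower had an unadjusted p under 0.05). Their median was -0.86 with all libraries and 0.94 without WT DMSO 4, when 6 were called higher. Cxcl10 had 420.1 CPM in WT DMSO 4 and at most 2.43 CPM in the other 3 WT libraries, against 1.83 to 4.73 CPM in KO untreated liver. Mx2 had 246.3 CPM in that library and 7.56 to 28.1 CPM in the other WT libraries, against 6.48 to 20.8 CPM in KO untreated liver.

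Neutrophil and monocyte markers moved with the same library. The summed level of all 17 markers listed was 7.46 to 8.82 CPM in KO untreated liver, against 7.70 to 52.8 CPM in WT DMSO liver. Of these, 10 passed the filter on low counts and were tested. Mmp8, a neutrophil collagenase, was the 1 marker called of 10 (edgeR adjusted p = 0.0353), with 0, 0, 0 and 0.0426 CPM in KO untreated and 0.205, 0.0694, 0.134 and 3.31 CPM in WT DMSO libraries. WT DMSO 4 alone was high. The part of these cells in the inflammatory gene differences was not tested. In bulk tissue, fewer cells of a type and less RNA per cell cannot be told apart.

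**Figure D4:**
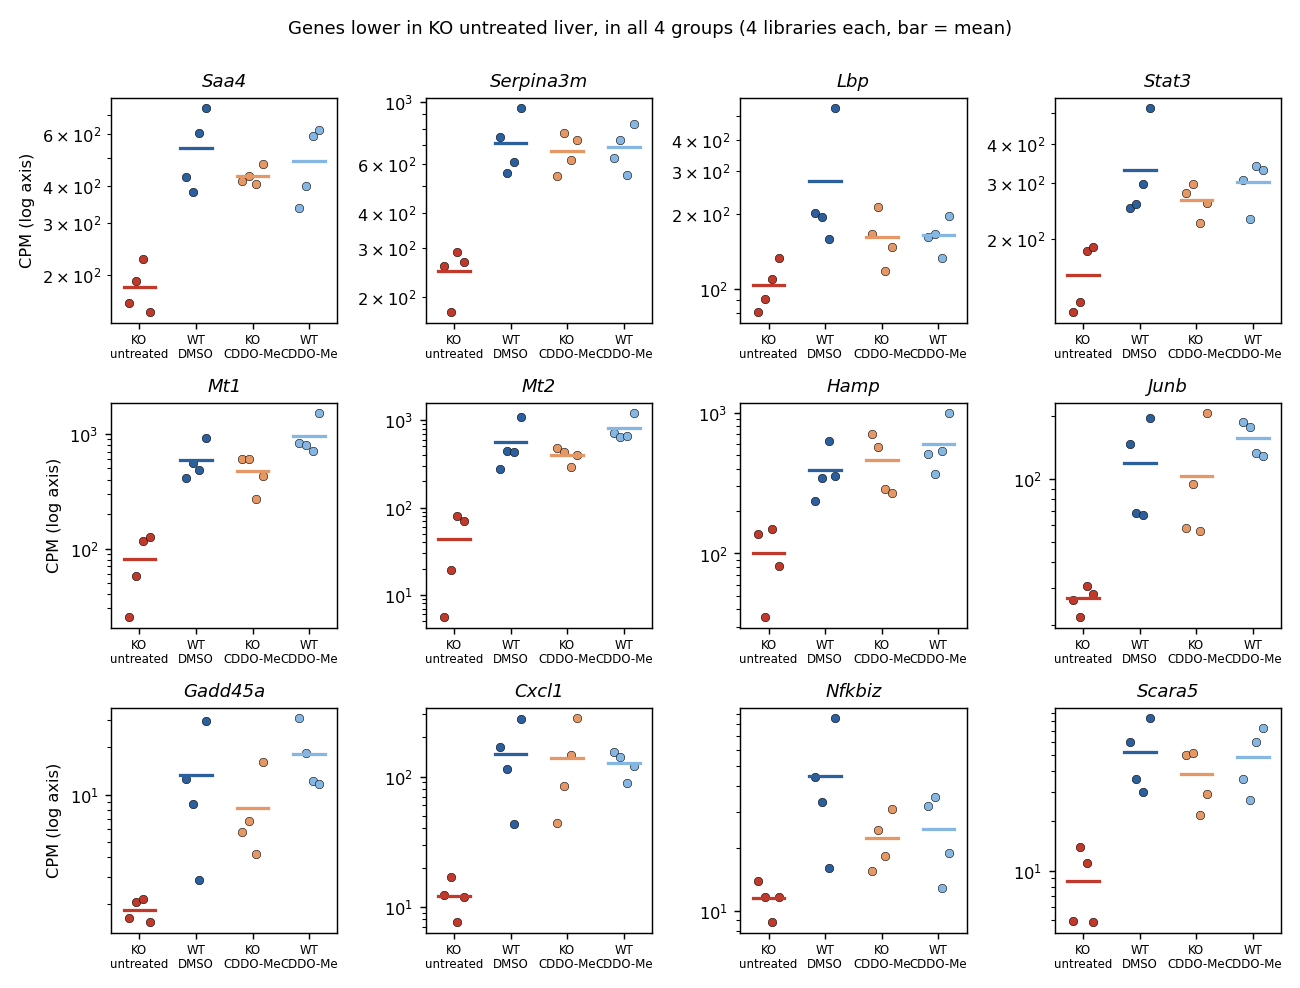
CPM on a log axis for 12 genes called lower in KO untreated liver, with 1 point per library and a bar at the mean of each group of 4. KO untreated has the lowest mean in each panel, and KO CDDO-Me libraries reach the range of the WT groups.

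The largest falls outside these lists were of mixed kinds. 9130409I23Rik (ENSMUSG00000038768, chromosome 1, 181051237 to 181060667), a protein-coding gene next to Ephx1, had 0.0508, 0.2896, 0.283 and 0.469 CPM in KO untreated 1 to 4, against 8.39, 9.78, 12.2 and 5.88 CPM in WT DMSO 1 to 4 (log2 fold change -5.0 ± 0.37, edgeR adjusted p = 2.32e-06). It was nearly absent from KO liver. Mapk15, an atypical MAP kinase, had 2.23, 1.496, 0.897 and 0.639 CPM in KO untreated and 20.7, 14.01, 8.297 and 6.38 CPM in WT DMSO libraries (log2 fold change -3.23 ± 0.39, edgeR adjusted p = 0.000488). Fitm1, a lipid droplet protein, had 1.27, 1.01, 1.51 and 0.426 CPM in KO untreated and 9.55, 8.39, 13.5 and 12.2 CPM in WT DMSO libraries (log2 fold change -3.37 ± 0.53, edgeR adjusted p = 0.00455). All 3 were also called lower under CDDO-Me (edgeR adjusted p = 4.43e-08, 1.26e-05 and 0.000819). Vtcn1, a B7-family immune ligand, was low in all libraries, at 0.0508, 0, 0.0944 and 0.0426 CPM in KO untreated and 1.98, 1.53, 0.201 and 0.505 CPM in WT DMSO (log2 fold change -4.32 ± 0.84, edgeR adjusted p = 0.0163). Syt12, a synaptotagmin, had 0.6603, 1.01, 1.08 and 0.938 CPM in KO untreated and 3.82, 4.93, 1.87 and 39.03 CPM in WT DMSO libraries (log2 fold change -3.75 ± 0.78, edgeR adjusted p = 0.0239). Slc13a5, the citrate transporter, had 0.914, 1.16, 0.661 and 0.852 CPM in KO untreated and 4.43, 3.61, 2.54 and 23.9 CPM in WT DMSO libraries (log2 fold change -3.28 ± 0.63, edgeR adjusted p = 0.0152). For Syt12 and Slc13a5 WT DMSO 4 was far above the rest, the fold changes were -1.93 and -1.97 on the log2 scale without it, and neither was called under CDDO-Me. Syt12 also lost its call with the replicate block (edgeR adjusted p = 0.0508), and without KO untreated 1, 2, 3 or 4. Slc13a5 lost its call without KO untreated 3 or 4, and Vtcn1 without KO untreated 2 or 4. With the 8 libraries alone neither Syt12 nor Slc13a5 was called.

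Among the genes called from the 8 libraries alone were Tsku, Adora1, Map3k6 and Slc35e3. Tsku, a secreted leucine-rich protein made by liver, had 6.86, 19.7, 13.3 and 6.95 CPM in KO untreated 1 to 4, against 73.1, 92.8, 107 and 122 CPM in WT DMSO 1 to 4 (log2 fold change -3.07 ± 0.31, edgeR adjusted p = 8.55e-05). Adora1, the adenosine A1 receptor, had 4.57, 3.62, 5.097 and 6.86 CPM in KO untreated and 17.9, 16.1, 13.9 and 16.1 CPM in WT DMSO libraries (log2 fold change -1.66 ± 0.21, edgeR adjusted p = 0.000687). In both genes the KO libraries lay far below the WT libraries, and each was also called lower under CDDO-Me. Map3k6, a MAP kinase kinase kinase, had 1.42, 1.06, 1.84 and 1.32 CPM in KO untreated and 18.3, 12, 5.82 and 16.1 CPM in WT DMSO libraries (log2 fold change -3.21 ± 0.39, edgeR adjusted p = 0.000499). It was not called under CDDO-Me (log2 fold change -0.99, edgeR adjusted p = 0.149). Slc35e3, of the nucleotide sugar transporter family, had 8.89, 9.56, 10.7 and 7.93 CPM in KO untreated and 30.6, 30.9, 37.3 and 21.5 CPM in WT DMSO libraries (log2 fold change -1.7 ± 0.19, edgeR adjusted p = 0.000333), with a log2 fold change of -1.81 under CDDO-Me (edgeR adjusted p = 2.2e-05).

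By FPKM averaged over both groups, the 5 most abundant genes called lower were Hamp, Mt2, Gm43305, Serpina3m and Ftl1. Mt2 averaged 76.3 FPKM in KO untreated and 902 FPKM in WT DMSO liver, and Hamp 281 FPKM in KO untreated and 931 FPKM in WT DMSO liver. Gm43305, a processed transcript, averaged 85.01 FPKM in KO untreated and 578 FPKM in WT DMSO liver. It had 248, 595, 393 and 208 CPM in KO untreated and 2113, 4595, 1011 and 3039 CPM in WT DMSO libraries (log2 fold change -2.9 ± 0.53, edgeR adjusted p = 0.0124). The 5 most abundant genes called higher by the same average, Coq8a, Cldn1, Hamp2, Sparc and Cyp2u1, were at lower levels, Coq8a averaging 87.1 FPKM in KO untreated and 43.5 FPKM in WT DMSO liver.

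The rise of Igf2bp3, an RNA-binding protein best known from fetal tissue and tumours, was the largest of the 66. It had 2.18, 5.65, 4.39 and 5.497 CPM in KO untreated 1 to 4, against 0.0682, 0.139, 0.134 and 0.0459 CPM in WT DMSO 1 to 4 (log2 fold change 5.51 ± 0.67, edgeR adjusted p = 0.000521). All 4 KO libraries were well above a WT group near 0. Under CDDO-Me it averaged 0.1003 ± 0.0725 CPM in KO and 0.0309 ± 0.0619 CPM in WT libraries (SD, n = 4 each), near 0 in both (edgeR adjusted p = 0.876). The difference between the contrasts was not called (edgeR interaction adjusted p = 0.0824). Gria3, a glutamate receptor subunit, had 18.5, 12.8, 9.15 and 9.84 CPM in KO untreated and 3.41, 0.902, 0.937 and 2.48 CPM in WT DMSO libraries (log2 fold change 2.69 ± 0.43, edgeR adjusted p = 0.00499). Adamts7, a secreted metalloprotease, had 41.4, 26.7, 14.4 and 14.2 CPM in KO untreated and 9.35, 4.65, 5.96 and 4.36 CPM in WT DMSO libraries (log2 fold change 1.99 ± 0.36, edgeR adjusted p = 0.0105). Zfp618, a zinc finger protein, had 10.7, 7.34, 4.67 and 7.799 CPM in KO untreated and 3.34, 1.39, 1.07 and 2.296 CPM in WT DMSO libraries (log2 fold change 1.91 ± 0.35, edgeR adjusted p = 0.0127). In these 3 genes KO untreated 1 was the highest library, and the groups did not overlap. Asb2, a substrate adaptor of ubiquitin ligases, had 2.895, 3.91, 3.07 and 5.07 CPM in KO untreated and 0.955, 1.39, 0.736 and 0.964 CPM in WT DMSO libraries (log2 fold change 1.89 ± 0.36, edgeR adjusted p = 0.0147).

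Ccl5, Clec2h, H2-Q1, Pcdh18, Sparc and Cd248 were also called higher. Ccl5, a T cell and macrophage chemokine, had 1.12, 1.16, 1.699 and 1.92 CPM in KO untreated 1 to 4, against 0.205, 0.208, 0.335 and 0.276 CPM in WT DMSO 1 to 4 (log2 fold change 2.5 ± 0.35, edgeR adjusted p = 0.00206). Clec2h, a C-type lectin, had 7.52, 28.2, 12.9 and 13.8 CPM in KO untreated and 2.66, 1.804, 3.55 and 3.03 CPM in WT DMSO libraries (log2 fold change 2.49 ± 0.41, edgeR adjusted p = 0.00643). H2-Q1, a class I gene and the 1 called of 20 class I antigen presentation genes, had 9.599, 10.5, 15.1 and 20.2 CPM in KO untreated and 5.25, 4.93, 5.35 and 5.88 CPM in WT DMSO libraries (log2 fold change 1.37 ± 0.23, edgeR adjusted p = 0.00731). All 3 rises held without any 1 library. Pcdh18, a protocadherin, had 2.49, 1.35, 1.32 and 2.73 CPM in KO untreated and 0.546, 0.139, 0.402 and 0.184 CPM in WT DMSO libraries (log2 fold change 2.65 ± 0.44, edgeR adjusted p = 0.00678). Sparc, a matrix glycoprotein, had 38.7, 52.9, 86.7 and 129 CPM in KO untreated and 37.2, 26.8, 28.3 and 36.5 CPM in WT DMSO libraries (log2 fold change 1.26 ± 0.27, edgeR adjusted p = 0.0307). Cd248, a pericyte and fibroblast surface protein, had 0.863, 0.724, 1.42 and 1.88 CPM in KO untreated and 0.477, 0.0694, 0.268 and 0.184 CPM in WT DMSO libraries (log2 fold change 2.29 ± 0.48, edgeR adjusted p = 0.0265). Cd248 and Sparc lost their calls without KO untreated 3 or 4 or WT DMSO 2, Sparc also without WT DMSO 3 and Cd248 without WT DMSO 4, and Ptgds, prostaglandin D synthase, in 7 of the 8 fits without 1 library (log2 fold change 2.01, edgeR adjusted p = 0.0491).

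**Figure D5:**
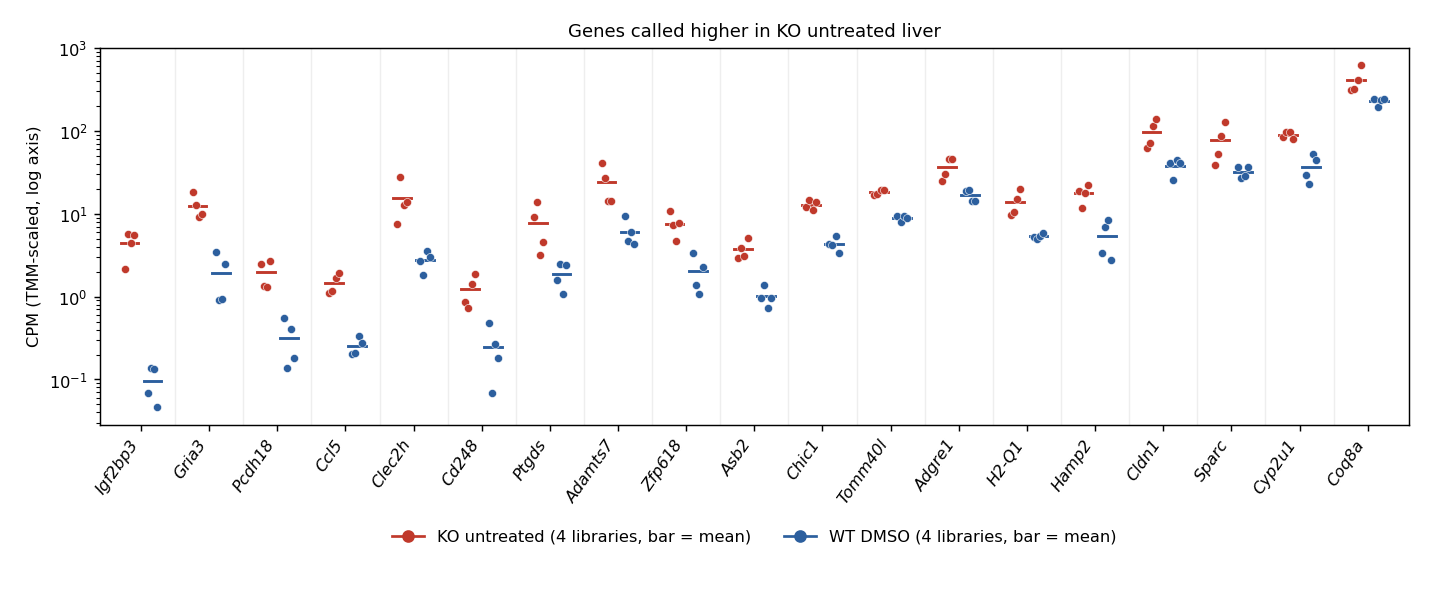
Each point is 1 library and each bar a group mean, in TMM-scaled CPM on a log axis, for 19 genes called higher, with KO untreated left of WT DMSO. Igf2bp3 lies between 2.18 and 5.65 CPM in KO untreated and at or below 0.139 CPM in WT DMSO libraries.

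Marker genes of other liver cells were read as whole lists. Of 16 Kupffer cell and macrophage markers, 13 were positive and 1 was called higher, Adgre1, which encodes F4/80. It had 25.2, 30.2, 45.97 and 45.7 CPM in KO untreated 1 to 4, against 19.1, 19.6, 14.4 and 14.1 CPM in WT DMSO 1 to 4, without overlap (log2 fold change 1.13 ± 0.19, edgeR adjusted p = 0.00749). The summed level of these markers was 507.6 to 886.2 CPM in KO untreated liver, against 465.6 to 671.6 CPM in WT DMSO liver. None of 18 stellate cell and fibroblast markers was called by edgeR (DESeq2 called 1 higher and 0 lower, and 8 higher and 2 lower had an unadjusted p under 0.05), 14 were positive, and the sum was 404.8 to 1048 CPM in KO untreated liver, against 364 to 631.6 CPM in WT DMSO liver. None of 18 endothelial markers was called by edgeR (DESeq2 called 0, and 3 higher and 0 lower had an unadjusted p under 0.05), 16 were positive, and the sum was 850.7 to 1058 CPM in KO untreated liver, against 595.3 to 869.1 CPM in WT DMSO liver. The 21 lymphocyte markers listed summed to 12.5 to 18.5 CPM in KO untreated liver, against 7.90 to 11.7 CPM in WT DMSO liver, without overlap. Of the 7 tested none was called by edgeR (DESeq2 called 1 higher and 0 lower, and 1 higher and 0 lower had an unadjusted p under 0.05). Hepatocyte markers, which define the tissue, were high in all libraries and overlapped, with sums between 69469 and 163219 CPM in KO untreated liver, against 72125 and 133969 CPM in WT DMSO liver. Of the markers of adipocyte, mesothelial and pancreatic cells Gcg was at 0 in all 8 libraries. Under CDDO-Me, 18 of 18 endothelial, 17 of 18 stellate cell and fibroblast and 10 of 16 Kupffer cell and macrophage markers were negative. Their medians were -0.52, -0.57 and -0.08, and 51.34% of all genes tested were negative. Of the 7 lymphocyte markers 0 were negative there. The part of these cell types in the rises was not tested.

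Of the 66 rises, 21 were also called higher in the 8 CDDO-Me libraries. Gria3, Zfp618 and Ptgds were among them (log2 fold change 1.64, 1.36 and 3.49, edgeR adjusted p = 0.038, 0.0448 and 0.00134). Tomm40l, which encodes a mitochondrial import pore protein, had 16.96, 17.4, 19.2 and 19.1 CPM in KO untreated 1 to 4, against 9.41, 7.98, 9.3 and 9 CPM in WT DMSO 1 to 4 (log2 fold change 1.03 ± 0.13, edgeR adjusted p = 0.000753). Its libraries were tight in both groups, and under CDDO-Me its log2 fold change came to 1.91 (edgeR adjusted p = 1.58e-07). Chic1 had 11.99, 14.5, 11.2 and 13.9 CPM in KO untreated and 4.37, 4.23, 5.35 and 3.398 CPM in WT DMSO libraries (log2 fold change 1.58 ± 0.23, edgeR adjusted p = 0.00291), with a change of 1.99 under CDDO-Me. P2ry4, a receptor for extracellular nucleotides, had 19.9, 23.3, 24.5 and 34.2 CPM in KO untreated and 9.69, 13.5, 15.2 and 14.5 CPM in WT DMSO libraries (log2 fold change 0.95 ± 0.18, edgeR adjusted p = 0.0169), with 1.47 under CDDO-Me (edgeR adjusted p = 0.000152). Cldn1, a tight junction protein, had 62.3, 70.9, 114 and 139 CPM in KO untreated and 40.9, 25.4, 44.5 and 40.6 CPM in WT DMSO libraries (log2 fold change 1.35 ± 0.28, edgeR adjusted p = 0.0232). Coq8a, needed for coenzyme Q synthesis, had 312, 323, 410.2 and 626 CPM in KO untreated and 239.9, 196, 236 and 244 CPM in WT DMSO libraries (log2 fold change 0.87 ± 0.21, edgeR adjusted p = 0.0493). Cldn1 and Coq8a were not called under CDDO-Me, and Coq8a lost its call in 7 of the 8 fits without 1 library and with the replicate block (edgeR adjusted p = 0.0644).

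Lists of central metabolism held few calls. None of 24 cholesterol synthesis genes was called by edgeR (DESeq2 called 1 higher and 0 lower, and 5 higher and 0 lower had an unadjusted p under 0.05), while 23 of the 24 were positive with a median of 0.44. Sc5d, a late enzyme of the pathway, had 529.5, 610.4, 568 and 893 CPM in KO untreated and 396, 282, 404 and 304 CPM in WT DMSO libraries, without overlap and without a call (log2 fold change 0.91 ± 0.24, edgeR adjusted p = 0.0768). Me1 was the only 1 of 29 fatty acid and triglyceride synthesis genes called and the only 1 of 14 pentose phosphate and NADPH genes called. None of 39 genes of fatty acid oxidation, 28 of glucose and glycogen metabolism, 38 of the urea cycle and amino acid catabolism, 19 of bile acid synthesis and 36 proteasome subunits was called by edgeR. DESeq2 called 2, 1, 1, 1 and 0 of these lists, and 4, 2, 5, 3 and 0 had an unadjusted p under 0.05. None of 19 thioredoxin and superoxide enzymes, 21 heat shock genes, 19 clock genes and 32 cell cycle genes was called by edgeR either. DESeq2 called 1, 1, 4 and 1 of these, and 5, 5, 5 and 8 had an unadjusted p under 0.05, against 14.1% of all genes tested. None of 12 female-biased liver genes was called by edgeR (DESeq2 called 2 higher and 0 lower, and 4 higher and 0 lower had an unadjusted p under 0.05). The summed level of all 20 genes of this list, tested or not, was 131.5 to 632.8 CPM in KO untreated liver, against 58.9 to 104.6 CPM in WT DMSO liver. Cyp2c40 had 79.1, 84.1, 128 and 314 CPM in KO untreated and 11.1, 37.4, 42.5 and 37.1 CPM in WT DMSO libraries (log2 fold change 2.24 ± 0.55, edgeR adjusted p = 0.0571), and KO untreated 4 was the highest.

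Within 10 Mb on either side of Nfe2l2, 2 of 108 genes tested were called (1.85%, against 1.38% of all genes tested), Rapgef4 and Cers6, both lower. Rapgef4, an exchange factor for Rap proteins that cyclic AMP activates, had 140.5, 201, 198 and 189 CPM in KO untreated and 345, 414, 286 and 379 CPM in WT DMSO libraries (log2 fold change -0.97 ± 0.19, edgeR adjusted p = 0.0189). Cers6, a ceramide synthase, had 15.6, 18.1, 21 and 19.5 CPM in KO untreated and 18.7, 83.3, 38.9 and 63 CPM in WT DMSO libraries (log2 fold change -1.46 ± 0.33, edgeR adjusted p = 0.0405). WT DMSO 1 lay among the KO libraries for Cers6, which was not called with the replicate block (edgeR adjusted p = 0.0594). The 10 Mb window with the most calls was 60 to 70 Mb of chromosome 14, with 10 of 74 genes called, 9 of them lower. Gm27177 had 0, 0.0483, 0 and 0 CPM in KO untreated and 7.03, 8.95, 5.49 and 8.95 CPM in WT DMSO libraries (edgeR adjusted p = 2.33e-07), which is 1 read in 1 KO library. Gm16867, a neighbour, had 0.813, 0.386, 0.378 and 0.213 CPM in KO untreated and 8.39, 11.4, 6.96 and 11.2 CPM in WT DMSO libraries (log2 fold change -4.41 ± 0.36, edgeR adjusted p = 6.56e-06). Both were called lower under CDDO-Me as well, and the segment holds near-identical genes among which reads can be divided. Scara5, a ferritin receptor in the same window, had 4.93, 13.8, 11.1 and 4.86 CPM in KO untreated and 60.4, 35.9, 30.1 and 83.5 CPM in WT DMSO libraries (log2 fold change -2.6 ± 0.45, edgeR adjusted p = 0.00827), and was not called under CDDO-Me (edgeR adjusted p = 0.751).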

How the data were processed

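RNA-seq libraries of day 0 mouse liver were analysed from the authors' deposited table, which holds raw counts per gene and, beside them, FPKM values that the authors computed relative to the reads counted in a library and to gene length. The submitters' processing notes name the build GRCm38.p5 and the tools TopHat2 2.1.0, HTSeq 0.6.1p1, cutadapt 1.2.1, CASAVA 1.8.2 and DESeq2, with no role or order, and the strand setting of the counting is not given in the sources used here.

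Counts of all 16 libraries were fitted with edgeR 4.0.16 in R 4.3.3, after a filter on low counts by group and TMM scaling. The quasi-likelihood test had 12 residual degrees of freedom, and p-values were adjusted by the Benjamini-Hochberg method over 16206 genes. Contrasts were KO untreated minus WT DMSO, KO CDDO-Me minus WT CDDO-Me, and their difference (the interaction). Alternatives used DESeq2 1.42.0, limma 3.58.1 on log2 of FPKM plus 1 or 0.1, other filters, scalings and sample sets, and each library left out in turn. The procedure was tested on simulated data with 200 genes changed in KO untreated. It called 35% of the 2-fold and 82% of the 4-fold changes, so a gene not called may still differ.

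Replicate numbers of the titles were checked as pairs. Deviations from the group means correlated at 0.475, 0.483, 0.404 and 0.371 between same-numbered libraries. Differently numbered ones correlated too, at 0.663 for KO untreated 1 with WT DMSO 2 and 0.453 for KO untreated 3 with WT DMSO 4. KO untreated 2 with WT DMSO 1 gave 0.385, and KO untreated 4 with WT DMSO 3 gave 0.335. Libraries 1 or 2 of 1 group with 3 or 4 of the other gave only negative values. The numbers are therefore not shown to be pairs. With the replicate block 76 genes were called higher and 174 lower.

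The compared groups, gene lists and members were chosen with earlier results of these data known. Named genes were Nfe2l2 and 6 usual NRF2 targets, the 10 largest rises and falls among called protein-coding genes with at least 1 CPM and no overlap, the 5 of highest FPKM in each direction, up to 4 called genes per list and those in dense 10 Mb windows. Other genes were named as part of a count after their values were seen, and 1 gene of the 20 called from 8 libraries is not reported here. Positions and gene types come from GENCODE M21, which matched 33629 of 33730 genes, and promoter sequences from RefSeq. No 2 libraries within KO untreated or within WT DMSO agreed within sampling noise, and other pairs were not examined.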

Additional observations from a re-analysis of the deposited data

Results flagged for a closer look

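Among 192 groups of 4 libraries examined, 19 had 1 library far from the other 3 by Dixon's criterion, which chance alone gives for about 1 in 20 groups. WT DMSO 4 was that library in 8 of them and KO untreated 4 in 5. In CPM, WT DMSO 4 had 294.4 for Hmox1 (the other WT libraries 20.5 to 47.2), 39.0 for Syt12 (1.87 to 4.93), 23.9 for Slc13a5 (2.54 to 4.43), 25.4 for Maff (5.53 to 7.91) and 535.3 for Lbp (159.7 to 202.7). It also had 3.31 for Mmp8 (0.0694 to 0.205), 420.1 for Cxcl10 (0.750 to 2.43) and 246.3 for Mx2 (7.56 to 28.1).

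KO untreated 4 had 18.5 CPM for Gstm3 (the other KO libraries 4.68 to 5.99), 20.7 for Ugt1a6b (29.1 to 30.7), 0.0426 for Mmp8 (0 in the others), 40.9 for the cholesterol synthesis gene Mvk (18.2 to 20.1) and 131.1 for the female-biased Cyp2c69 (11.9 to 27.1). Ugdh had 48.9 CPM in KO untreated 1 (71.9 to 76.6 in the others) and Ces1g 31.5 CPM in KO untreated 3 (14.2 to 16.7). Gm27177 had 0.0483 CPM in KO untreated 2 and Gm12498 0.0508 CPM in KO untreated 1, against 0 in the other 3 KO libraries each. Gsta2 had 16.3 CPM in WT DMSO 3 (9.02 to 9.21) and Coq8a 196.3 CPM in WT DMSO 2 (236.5 to 243.6).

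The genotype difference without drug differed from that under CDDO-Me by edgeR's interaction test for 9 named genes, all lower by more under the drug. On the log2 scale the difference was 2.58 for Nqo1 (adjusted p = 0.0183), 2.07 for Gclc (0.00241), 2.15 for Srxn1 (0.0161), 2.96 for Gstm1 (0.00241), 4.16 for Gstm3 (0.00241), 5.4 for Gsta1 (0.000517), 3.37 for Gsta2 (0.00241), 1.76 for Blvrb (0.014) and 2.2 for Adora1 (0.00241).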

How the results depend on the processing

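All 223 called genes kept their direction under every alternative that gave them a value, except 1 gene with only the 10 libraries low in nuclear rRNA, a set chosen after seeing the data that has WT DMSO 4 alone as its WT control without drug. That lone library is assumed to vary like the other groups. The counts moved more, and the cause was not tested. Against 66 higher and 157 lower, DESeq2 gave 245 and 412, log2(FPKM + 1) 168 and 83, log2(FPKM + 0.1) 145 and 89, the 8 libraries alone 2 and 18, the fit without the intron-rich libraries 36 and 50, that with the intronic share as a covariate 286 and 462, and the low-rRNA set 487 and 974. FPKM scaled by TMM, also added after seeing the data, gave 100 lower calls. Leaving out each library in turn gave 27 to 87 higher and 71 to 198 lower calls, and 74 genes kept their call in all 8 of these fits, 13 of them NRF2 targets. NRF2 targets called lower numbered 6 with the 8 libraries alone, 8 without the intron-rich libraries and 13 to 18 without 1 library. Under CDDO-Me, 534 calls became 1125 with DESeq2 and 2045 with those 8 libraries alone.

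Gclm, at -0.30 to 0.116 without 1 library, changed sign, to 0.0946 and 0.0991 with FPKM plus 1 and plus 0.1, and to 0.0546, 0.116 and 0.0114 without KO untreated 1, WT DMSO 3 and WT DMSO 4. Cxcl10, at -5.57 to 0.91 without 1 library, was positive only without WT DMSO 4. With the replicate block, 76 genes were called higher and 174 lower, and 191 of the 250 were called in both fits. Among the named genes, the block ended the calls of Syt12, Hamp, Coq8a, Cyp3a13, Cers6 and Prmt3. Genes with few KO reads, such as Ces1a and Gm27177, are limited by depth.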
